A study of Mus musculus with 8 samples.

Results

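Csf2 (GM-CSF), Lta (lymphotoxin alpha), Tnf, Il2 and Il3 are 5 cytokine genes that CD4 T cells transcribe after stimulation through their receptor. They were taken by gene symbol, with earlier results of these data known, and are 5 of the 32285 gene features in the matrices. Each symbol matched 1 feature in all 4 RNA libraries. The cells came from Foxp3-Cre-YFP mice, in which the reporter marks cells that express Foxp3, with experimental autoimmune encephalomyelitis (EAE), an induced disease that serves as a mouse model of multiple sclerosis. All groups share that genotype and the disease, and no cells from healthy mice were among the samples. Conventional CD4 T cells were sorted as CD44+, Foxp3-YFP-, TCRβ+ and CD11b- from the brain, freed of its meninges, and from the spinal cord. They were taken at day 14 (acute phase) and at day 50 (chronic phase). Each tissue and day gave 1 RNA library and 1 library of antibody tags against CD69, the ATP receptor P2X7R and the chemokine receptor CXCR6. The labels state neither the number nor the age of the mice in each library. The question the design addresses is how these cells differ between the acute and the chronic phase and between the 2 tissues.

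GM-CSF is made by encephalitogenic T cells and acts on monocytes and other myeloid cells, and mice that lack it resist EAE. Tumour necrosis factor and lymphotoxin alpha are neighbouring genes of 1 family and signal through shared TNF receptors, while interleukin-2 is a growth factor of T cells read by a receptor that contains Il2ra. Interleukin-3 is a growth factor of mast cells and basophils whose gene lies next to Csf2. Transcription of all of them depends on NFAT, AP-1 and NF-κB factors, and their mRNAs carry elements that speed decay.

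The genes sit at 3 loci, all on the minus strand of GRCm38. Csf2 (ENSMUSG00000018916) lies at chr11:54247270-54249899 and Il3 (ENSMUSG00000018914) at chr11:54265085-54267279, with 15185 bases and no annotated gene between them. Tnf (ENSMUSG00000024401) lies at chr17:35199367-35202007 and Lta (ENSMUSG00000024402) at chr17:35203165-35205578, with 1157 bases between them. Il2 (ENSMUSG00000027720) lies at chr3:37120713-37125954. The promoter windows below, from RefSeq (GRCm38.p6), hold 250 bases before and 50 after each listed transcription start and are shown because 4 of the 5 genes were detected in the same cells more often than expected. The start listed for Lta lies inside the annotated span of that gene. They read 5′ to 3′ on the coding strand, and capitals mark the letters GGAAA, the core that NFAT factors bind, on either strand (TTTCC on the other).
Csf2, chr11:54249850-54250149: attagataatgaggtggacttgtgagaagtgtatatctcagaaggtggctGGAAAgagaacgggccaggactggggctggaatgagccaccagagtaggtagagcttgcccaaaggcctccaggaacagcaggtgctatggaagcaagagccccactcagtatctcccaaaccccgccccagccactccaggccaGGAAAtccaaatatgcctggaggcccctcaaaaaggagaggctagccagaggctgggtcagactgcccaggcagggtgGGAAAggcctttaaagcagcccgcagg
Lta, chr17:35205302-35205601: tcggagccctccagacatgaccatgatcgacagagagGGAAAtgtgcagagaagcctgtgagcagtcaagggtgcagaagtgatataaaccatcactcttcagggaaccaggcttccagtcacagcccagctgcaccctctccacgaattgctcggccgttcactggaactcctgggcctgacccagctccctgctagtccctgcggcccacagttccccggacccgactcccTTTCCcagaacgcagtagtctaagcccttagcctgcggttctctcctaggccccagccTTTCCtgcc
Tnf, chr17:35201958-35202257: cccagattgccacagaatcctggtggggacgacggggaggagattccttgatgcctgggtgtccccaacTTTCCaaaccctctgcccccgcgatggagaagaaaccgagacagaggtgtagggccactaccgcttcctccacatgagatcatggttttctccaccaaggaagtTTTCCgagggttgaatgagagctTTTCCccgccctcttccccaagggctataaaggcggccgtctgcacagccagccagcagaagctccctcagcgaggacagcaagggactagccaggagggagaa
Il2, chr3:37125905-37126204: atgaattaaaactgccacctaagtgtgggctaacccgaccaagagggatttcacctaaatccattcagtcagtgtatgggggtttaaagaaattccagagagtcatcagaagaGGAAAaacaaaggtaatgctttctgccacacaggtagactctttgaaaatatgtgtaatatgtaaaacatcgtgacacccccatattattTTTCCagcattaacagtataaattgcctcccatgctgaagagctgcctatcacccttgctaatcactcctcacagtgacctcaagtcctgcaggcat
Il3, chr11:54267230-54267529: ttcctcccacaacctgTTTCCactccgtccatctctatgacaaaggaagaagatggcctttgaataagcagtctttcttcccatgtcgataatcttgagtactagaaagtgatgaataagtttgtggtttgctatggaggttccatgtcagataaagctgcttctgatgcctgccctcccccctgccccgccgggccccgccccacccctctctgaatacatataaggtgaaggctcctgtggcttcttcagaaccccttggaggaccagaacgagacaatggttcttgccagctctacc
The GGAAA core was found 3 times each in the windows of Csf2, Lta and Tnf, 2 times in Il2 and 1 time in Il3. At least 1 match was present in 61.3% of all 32851 promoter windows of that length and at least 3 matches in 9.42%, with both strands searched and overlapping matches counted once. Relative to the start, the matches began at positions −181, −77 and −54 in Tnf, at −200, −55 and 24 in Csf2, and at −137 and −47 in Il2. The AP-1 letters TGANTCA were in none of the 5 windows and in 7.81% of all windows. The letters TATAAA were in the windows of Lta, Tnf and Il2 and in 13.6% of all windows, and in Tnf and Il2 they began at positions −29 and −31. The NF-κB motif, GGG and CC with 5 bases between them, was in all 5 windows, 2 times in Tnf and 1 time in the others, and in 50.8% of all windows. Whether any of these matches is bound in these cells was not measured.

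Single-cell RNA was counted as unique molecular identifiers (UMIs), each standing for 1 captured mRNA molecule read from its 3′ end. After filtering, 10313 brain and 9270 spinal cord cells were kept at day 14 and 343 and 1607 at day 50, with 47272714, 50710551, 1153730 and 6026012 RNA UMIs. Median depth per cell was 4004, 4921, 2967 and 3462 UMIs, respectively. Levels are given as CPM, the UMIs of a gene scaled to a common library total, with exact Poisson intervals, and shares of positive cells were taken after every cell was thinned to 2000 UMIs, which left 9150, 9128, 245 and 1480 cells. With 1 library in each group there was no replicate test, and all 95% intervals cover counting error only. A difference between 2 libraries was called where it reached 1.5-fold and its exact interval excluded 1. Foxp3 had 2, 1, 0 and 1 UMIs in these libraries, the 5 myeloid markers summed to at most 2.33 CPM and the 4 mast cell and basophil markers to at most 0.148 CPM, while the 5 dendritic cell markers summed to 97.9 CPM in brain at day 50 and to between 10.3 and 14.7 CPM elsewhere, with Flt3 at 0 in all 4. The part of RNA from such cells in the brain values at day 50 was not tested. The 4 oligodendrocyte or myelin markers summed to between 46.8 and 76.9 CPM and the 4 microglia markers to between 13.9 and 29.8 CPM. The brain and spinal cord libraries of day 14 shared 34 barcodes and no other pair shared more than 5. The kept cells were not divided into types, so the share of these cytokines in a cell type that should lack them, the measure of RNA free in the droplets, is not given.

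Csf2 was present at 55.0 CPM (95% interval 53.0 to 57.1) in spinal cord and 47.1 CPM (45.2 to 49.1) in brain at day 14. At day 50 it was at 30.3 CPM (21.1 to 42.2) in brain, from 35 UMIs, and at 12.1 CPM (9.50 to 15.2) in spinal cord, from 73 UMIs. By level the order was spinal cord then brain at day 14, followed by brain and then spinal cord at day 50. The 4 intervals did not overlap, but they cover counting error only and do not establish that order. Without cells of 10 or more Csf2 UMIs, brain at day 50 was at 30.3 CPM and spinal cord at 10.3 CPM. The day 14 values were then 24.6 CPM in brain and 29.1 CPM in spinal cord, so only the lowest place was kept. In spinal cord the level at day 50 was 4.54-fold lower (log2 ratio −2.18, interval −2.54 to −1.85), and the share of positive cells went from 4.49% (4.08 to 4.94) to 1.69% (1.10 to 2.48). In brain the level was 1.55-fold lower (−0.64, −1.16 to −0.16), but the shares of positive cells, 3.65% at day 14 and 2.86% at day 50, had overlapping intervals. The brain difference was no longer called relative to the median of all compared genes (−0.50). Without thinning, 6.16% of brain and 8.30% of spinal cord cells were positive at day 14 and 4.37% and 2.49% at day 50. The tissues differed little at day 14 (0.22) and by 2.50-fold at day 50, with less in spinal cord (−1.32, −1.93 to −0.70).

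Lta stood at 87.7 CPM (85.1 to 90.3) in spinal cord and 46.0 CPM (44.1 to 48.0) in brain at day 14. At day 50 it was at 45.9 CPM (34.4 to 60.1) in brain and 18.9 CPM (15.6 to 22.7) in spinal cord. The brain values of the 2 days lay together, with a log2 ratio of −0.003 (−0.42 to 0.39), and the 2 spinal cord values were the highest and the lowest. The spinal cord level was 4.64-fold lower at day 50 (−2.21, −2.49 to −1.94), and positive cells went from 9.71% (9.11 to 10.3) to 2.57% (1.82 to 3.51). At day 14 spinal cord exceeded brain 1.91-fold (0.93, 0.86 to 1.01), and at day 50 it was 2.43-fold lower than brain (−1.28, −1.76 to −0.78). The day 50 difference was clear in the level and not in the thinned shares, which were 4.90% in brain (2.56 to 8.40) and 2.57% in spinal cord. Unthinned shares were 9.51% and 19.0% at day 14 and 6.41% and 4.61% at day 50, for brain and spinal cord.

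Tnf was at 124.3 CPM (121.3 to 127.4) in spinal cord and 82.2 CPM (79.6 to 84.8) in brain at day 14. At day 50 it was at 106.6 CPM (88.6 to 127.2) in brain and 71.9 CPM (65.3 to 79.0) in spinal cord. The fold between its highest and lowest library was thus the smallest of the 4 detected genes, and the intervals of the 2 highest values overlapped. The spinal cord level at day 50 was 1.73-fold lower (−0.79, −0.93 to −0.65), a difference no longer called relative to the median of all genes, which was itself −0.33. The brain level did not reach the limit (0.38, 0.10 to 0.63), although the thinned share of Tnf-positive cells was 17.6% (13 to 22.9) at day 50 against 11.2% (10.5 to 11.8) at day 14. That difference in share was not seen without thinning, where 21.6% and 21.0% were positive. At day 14 spinal cord exceeded brain 1.51-fold (0.60, 0.54 to 0.65), also not called relative to the median. At day 50 the tissues differed by −0.57 (−0.86 to −0.27), short of the limit and called lower in spinal cord only relative to the median of all genes.

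Il2 had the opposite course from Csf2 and Lta in spinal cord. Its level was 24.0 CPM (22.7 to 25.4) in spinal cord and 37.5 CPM (35.8 to 39.3) in brain at day 14, and 36.3 CPM (31.7 to 41.5) in spinal cord and 76.3 CPM (61.2 to 94) in brain at day 50. The log2 ratio of day 50 over day 14 was 0.60 (0.39 to 0.81) in spinal cord and 1.02 (0.70 to 1.33) in brain. Positive cells were 4.98-fold more frequent at day 50 in spinal cord, 5.95% (4.80 to 7.28) against 1.19% (0.98 to 1.44), and 3.44-fold more frequent in brain, 6.12% (3.47 to 9.90) against 1.78% (1.52 to 2.07). The brain level turned on 1 cell, which held 63 of the 88 Il2 UMIs at day 50. Without the UMIs of the 2 richest cells in each library the brain level was 18.2 CPM at day 50 and 27.0 CPM at day 14, which reverses the ratio to −0.57, and the tissue ratio at day 50 turned from −1.07 to 0.81. The 2 richest cells are a larger share of the 343 brain cells at day 50 than of the 10313 at day 14. Without all cells of 10 or more Il2 UMIs, the brain ratio was 1.29 and the tissue ratio at day 50 was 0.62. In brain that removed 26 cells at day 14 and 1 at day 50, similar shares of 0.252% and 0.292%. The spinal cord ratio without the 2 richest cells was called in the same direction, at 31.9 CPM against 15.1 CPM.

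Il3 was almost absent. It had 2 UMIs in 2 brain cells and 5 UMIs in 1 spinal cord cell at day 14, and 0 at day 50, where the limit for a count of 0, set at 3 UMIs, is 2.60 CPM in brain and 0.498 CPM in spinal cord and the upper Poisson bound is 3.20 CPM and 0.612 CPM. The 3 cells with Il3 all held Il2 as well, with 37, 30 and 5 Il2 UMIs, and all held Tnf, with 58, 6 and 2 UMIs. Il3 had too few UMIs to be compared between libraries.

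In the comparison of day 50 with day 14, brain had 1 of 4 compared members called higher and 1 called lower, where 10.9% of 12801 genes were called, 5.15% higher and 5.74% lower. Relative to the median of all genes (−0.13), 1 member was higher and 0 lower, where 10.7% of genes were called, 7.38% higher and 3.27% lower. In spinal cord 1 member was called higher and 3 lower, where 30.6% of 13170 genes were called, 6.77% higher and 23.8% lower. Relative to the median (−0.33), 1 was higher and 2 lower, where 23.3% of genes were called, 12.8% higher and 10.5% lower. A lower call in spinal cord was thus common among all genes, and the Csf2 and Lta ratios lay well beyond the median. Between tissues at day 14, 2 members were higher and 1 was lower in spinal cord, where 18.4% of 13868 genes were called, 14.7% higher and 3.66% lower. Relative to the median (0.20), 1 was higher and 1 lower, where 12.6% of genes were called, 6.4% higher and 6.24% lower. At day 50, 3 members were lower in spinal cord and 0 higher, where 7.03% of 10293 genes were called, 2.64% higher and 4.39% lower. Relative to the median (0.03), 4 were lower and 0 higher, where 6.94% of genes were called, 2.23% higher and 4.7% lower. These 4 comparisons rest on the same 4 libraries and are not independent of each other.

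**Figure D1:**
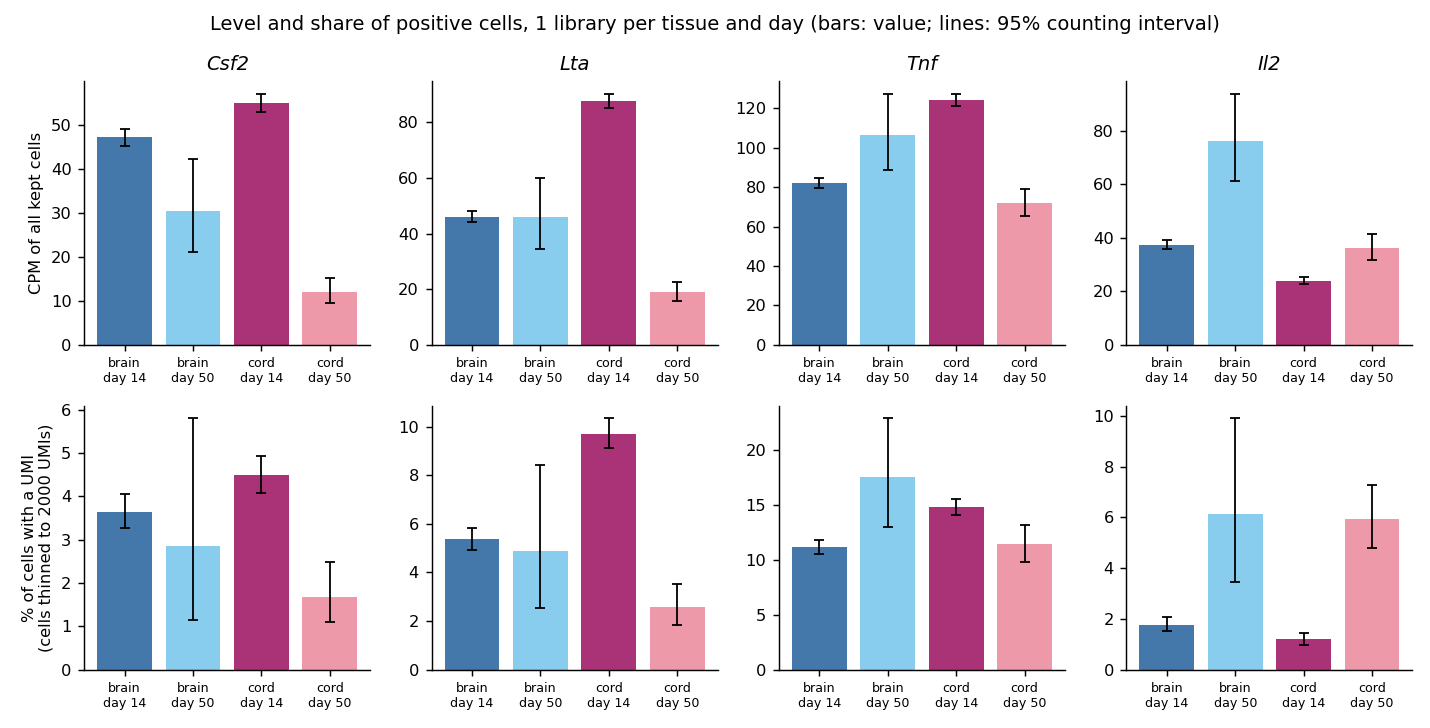
Upper panels give the level of each gene in CPM and lower panels the percentage of cells with at least 1 UMI after thinning to 2000 UMIs, by library; bars are values, lines 95% counting intervals, and each panel has its own scale from 0. Csf2 and Lta reach their lowest bars in spinal cord at day 50, where the share of Il2-positive cells is 5.95% against 1.19% at day 14.

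Much of the cytokine RNA at day 14 was held by few cells. For Csf2, 50 brain cells with 10 or more UMIs (0.485% of cells) held 47.7% of its UMIs, and 67 spinal cord cells (0.723%) held 47.1%. The richest held 80 UMIs in brain and 108 in spinal cord. For Il2 the concentration was stronger: 26 brain cells held 76.4% of its UMIs and 14 spinal cord cells held 77.9%, with 348 UMIs in 1 brain cell, 4.05% of all RNA counted in it, and 338 in 1 spinal cord cell. Lta and Tnf were spread more evenly, with 21.9% and 16.3% of brain UMIs and 24.4% and 25% of spinal cord UMIs in such cells. At day 50 the spinal cord library held 1 cell with 10 or more UMIs for Csf2, 1 for Lta, 1 for Il2 and none for Tnf, among 1607 cells.

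Il2 in spinal cord at day 50 therefore had another distribution than at day 14. There were 152 Il2-positive cells before thinning (9.46% of cells, 8.07 to 11) against 217 at day 14 (2.34%, 2.04 to 2.67), although cells at day 50 were shallower. Of these 152 cells 117 held 1 UMI, and 43 cells were needed to reach 50% of the gene's UMIs, against 4 cells at day 14. Cells with fewer than 10 Il2 UMIs contributed 33.4 CPM at day 50 and 5.31 CPM at day 14 in spinal cord, and 21.7 CPM and 8.86 CPM in brain. Csf2 in cells with fewer than 10 of its UMIs was at 10.3 CPM at day 50 and 29.1 CPM at day 14 in spinal cord, so it was lower at day 50 there without the rich cells too. In brain the same measure gave 30.3 CPM at day 50, where no cell was rich, and 24.6 CPM at day 14, which reverses the direction of the level.

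**Figure D2:**
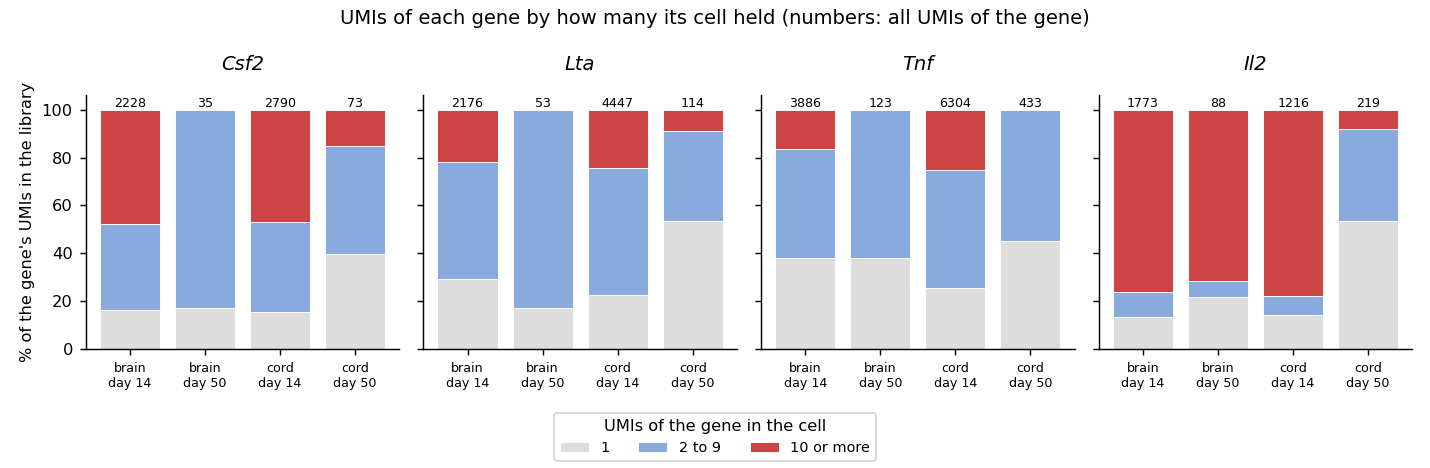
Stacked bars give the percentage of each gene's UMIs that lay in cells with 1, with 2 to 9 and with 10 or more UMIs of that gene, by library; numbers above the bars are the UMIs of the gene in the library. Cells with 10 or more Il2 UMIs hold 76.4%, 71.6% and 77.9% of the Il2 UMIs in 3 libraries and 8.22% in spinal cord at day 50.

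At day 14, Egr2 and Nr4a1 were found more often in cells rich in Csf2, Tnf or Il2 than in cells without that gene. Nr4a1 is also known to be induced while tissue is dissociated, and the part of that here was not tested. In spinal cord at day 14, Egr2 and Nr4a1, which are induced within hours of T cell receptor signalling, were detected after thinning in 2.98% and 6.19% of cells without Csf2, in 12.7% and 13.4% of those with 1 Csf2 UMI, in 22.0% and 30.8% with 2 to 9, and in 38.8% and 44.8% with 10 or more. The median CD69 antibody count over the same 4 classes was 9, 18, 22 and 26. In brain Egr2 was found in 1.18%, 4.96%, 8.30% and 8.33% of these classes and the median CD69 count was 4, 7, 10 and 18. For Il2 the step lay above 1 UMI. Nr4a1 was detected in 15.8% of brain cells without Il2, in 11.8% of those with 1 UMI, in 40.0% with 2 to 9 and in 68.0% with 10 or more, and in spinal cord in 7.42%, 5.33%, 33.3% and 57.1%. Spinal cord cells of day 50 held it in 9.80% of those without Il2, 11% of those with 1 UMI and 30.3% of the 33 thinned cells with 2 to 9. In these 3 libraries cells with 1 Il2 UMI thus lay close to Il2-negative cells in this marker. In brain at day 50 it was found in 38.9% of the 18 thinned cells with 1 Il2 UMI and in 27.2% of the 224 without. Cells with 1 UMI made up most of the Il2-positive cells in every library, and whether some of those UMIs came from free RNA was not tested. Lta behaved otherwise in brain at day 14, where Egr2 was found in 1.15%, 4.69%, 5.57% and 0% of its 4 classes, the last of 27 cells. Nr4a1 was found in 15.9%, 18.1%, 13.4% and 14.8% of the same classes. Lta-rich spinal cord cells at day 14 held Egr2 and Nr4a1 in 18.8% each, against 2.94% and 6.76% of cells without Lta. Tnf-rich cells held them in 42.7% and 49.4% there, against 1.85% and 5.34% of cells without Tnf. Brain at day 14 gave 18.2% and 66.7% of Tnf-rich cells, against 0.975% and 15.3%.

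The members were found together in the same cells at day 14. After thinning to equal depth, 71 brain cells held both Csf2 and Lta where independence would give 17.9, a ratio of 3.97, and 118 spinal cord cells did so where 39.8 would be expected, a ratio of 2.97. Csf2 and Il2 coincided 3.87 and 3.06 times as often as under independence, in 23 and 15 cells. Csf2 and Tnf coincided 1.96 and 2.64 times, and Tnf was present in 39.0% of Csf2-positive spinal cord cells (34.3 to 43.9) against 13.7% of the others (13 to 14.4). Lta and Tnf, although adjacent in the genome, coincided 1.75 and 1.57 times as often as under independence. Il2 and Lta were the weakest pair, at 1.38 in brain and 1.42 in spinal cord, with intervals that included the expected value. At least 2 members were found in 2.47% of thinned brain cells and 4.33% of thinned spinal cord cells at day 14, in 3.27% and 1.35% at day 50. Before thinning, positive cells were deeper than negative ones for Csf2 and Lta (medians 5374.5 against 4276 UMIs for Csf2 in brain at day 14), and the part of RNA content in the co-detection that remained after thinning was not tested.

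Cells rich in 1 member were often positive for others. Of the 50 brain cells with 10 or more Csf2 UMIs, 9 also held 10 or more of Il2, 6 of Tnf and 5 of Lta, and 31 held at least 1 Tnf UMI. Of the 67 spinal cord cells, 17 held 10 or more of Tnf, 8 of Lta and 8 of Il2. No cell held 10 or more of both Il2 and Lta in either tissue at day 14, among 26 Il2-rich and 27 Lta-rich brain cells and 14 Il2-rich and 69 Lta-rich spinal cord cells. These were 0.252% and 0.262% of brain cells and 0.151% and 0.744% of spinal cord cells, too few for an overlap to be likely. None of the 69 Lta-rich spinal cord cells held any Il2 UMI, and 2.34% of all spinal cord cells did. Of the 69, 44 held Tnf and 26 held Csf2, which were in 29.2% and 8.30% of all cells there. Other counts at day 14 went the other way. Lta was held by 8 of the 14 Il2-rich spinal cord cells and by 11 of the 26 Il2-rich brain cells. It was in 19.0% of all spinal cord cells and 9.51% of all brain cells. Il2 was held by 3 of the 27 Lta-rich brain cells, against 2.996% of all brain cells. The counts are too small to show that Il2 and Lta exclude each other, and they differ in direction. Of the 5% of spinal cord cells with the most UMIs, 22 were among the 69 Lta-rich cells, 13 among the 67 Csf2-rich and 2 among the 14 Il2-rich cells. Doublets had not been removed from the day 14 libraries, and their part in these counts was not tested.

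Pairs were few in spinal cord at day 50. Csf2 was seen with Tnf in 5 cells where 2.86 were expected, Lta with Tnf in 7 where 4.34 were expected, and Il2 with Tnf in 7 where 10.1 were expected. Il2 was found with Lta in 1 cell where 2.26 were expected. All 6 intervals included the expected value among these 1480 thinned cells, against 9128 at day 14. In brain at day 50, with 245 thinned cells, no pair was seen in more than 4 cells.

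**Figure D3:**
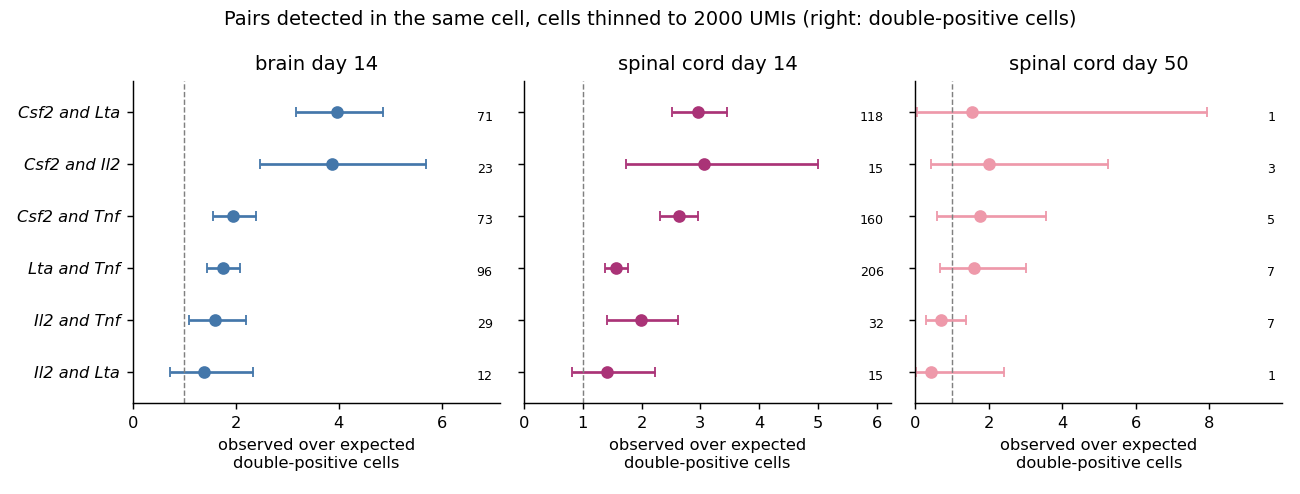
Points give the number of cells positive for both genes divided by the number expected if the genes were detected independently, after thinning to 2000 UMIs; lines are exact 95% intervals of the share of cells with the second gene among cells with the first, divided by its share in all cells, and numbers on the right count double-positive cells. The pairs of Csf2 with Lta, Il2 and Tnf lie at 1.96 or more in both day 14 libraries, and all day 50 spinal cord intervals include 1.

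Other cytokine genes accompanied the members. Of 33 listed partner cytokines, chemokines and TNF family ligands, 29 were detected in brain and 30 in spinal cord at day 14. In brain 15 of them, and in spinal cord 17, were found in a larger share of Csf2-positive than Csf2-negative cells with intervals apart, and 1 in a smaller share in each. By the same measure 4.02% of all 15414 detected genes were more frequent and 2.09% less frequent in Csf2-positive brain cells, and 3.97% and 3.11% of 15580 in spinal cord. Among genes found in at least 2% of cells, 10 of 14 partner genes in brain and 11 of 14 in spinal cord were more frequent, where 8.02% and 7.77% of all such genes were. The partner list was chosen with earlier results of these data known, so these counts are a description and not a test. Ccl1, a chemokine of activated T cells, was present in 28.1% of Csf2-positive brain cells against 4.67% of the others, and in 32.0% against 7.01% in spinal cord. Ifng was present in 49.7% against 27.6% and in 47.1% against 27.6%. Tnfsf11, which encodes RANKL, was present in 26.1% against 7.78% and in 37.3% against 10.4%, and Il17a in 16.8% against 6.40% and in 12.7% against 4.36%. The gene found less often was Ccl5 in both tissues, at 21.9% against 30.8% in brain and 20% against 26.2% in spinal cord.

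Lta shared this company, with 13 and 16 partner genes more frequent in brain and spinal cord, and Tnf had 10 and 14. Over all detected genes the shares were 3.44% and 3.81% for Lta and 1.41% and 2.2% for Tnf. Il2 had 10 in brain and 6 in spinal cord, where 1.17% and 0.899% of all genes were more frequent, and its partners were not all those of Csf2. In brain, Tnfsf8 (CD30 ligand) was present in 31.3% of Il2-positive cells against 13.3% of the others, whereas it was less frequent in Lta-positive cells (9.39% against 13.9%) and in Tnf-positive cells (11% against 14.0%). Il21 was found in 3.68% of Il2-positive brain cells against 0.58% and in 6.42% against 0.52% in spinal cord. Ifng was present in 26.4% of Il2-positive brain cells against 28.4% of the others and in 32.1% against 28.5% in spinal cord, with overlapping intervals. In spinal cord at day 50, Tnf-positive cells held Ifng in 50.3% against 27.8%, Il2-positive cells held Cd40lg in 38.6% against 24.9%, and Ccl4 was in none of the 88 Il2-positive cells and in 6.32% of the others.

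Across 6235 genes detected in at least 2% of thinned cells of both day 14 libraries, the genes most like each member by Pearson's correlation across cells (of log values, with a pseudocount of 1) were ranked by the lower of the 2 values. For Csf2 they were Ccl1 (r = 0.27 in brain and 0.26 in spinal cord), Ifng (0.17 and 0.20), Lta (0.17 and 0.16), Tnfrsf9 (0.15 and 0.16) and Gadd45b (0.15 and 0.15). For Lta they were Ccl1, Csf2, Nrgn, Capg and Igfbp7, and for Tnf they were Ifng, Egr3, Furin, Tnfsf14 and Cd40lg. Il2 was most like Csf2 (0.23 and 0.18), followed by Tnf, Gch1, Rgcc and Nr4a3. All values were low, as is usual for sparse counts, and they share library and depth.

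Csf2 was also compared between cells with and without each listed gene of T cell state. In brain at day 14, 14 of 30 state genes marked cells with a larger share of Csf2-positive cells and 8 marked cells with a smaller share, intervals apart, and 12 and 7 did so in spinal cord. Of all detected genes 3.86% marked more and 1.8% fewer Csf2-positive cells in brain, and 3.95% and 2.86% in spinal cord. Among genes found in at least 2% of cells, 12 of 24 state genes marked more in brain and 12 of 25 in spinal cord, where 6.83% and 6.99% of all such genes did. The state list, too, was chosen with earlier results of these data known. Csf2 was found in 19.3% (13.1 to 26.8) of the 140 brain cells with Egr2 and in 21.6% (17.6 to 26.0) of the 389 spinal cord cells with it, against 3.41% and 3.73% of the others. In cells with Tnfrsf9, which encodes the costimulatory receptor 4-1BB, Csf2 was found in 14.9% in brain and 15.8% in spinal cord. In cells with Il2ra, the alpha chain of the IL-2 receptor, it was found in 10.9% in both tissues, and in cells with Il1r1, a receptor for IL-1, in 7.74% and 7.13%. Cells with genes of recirculating and less differentiated cells held little Csf2: 1.70% and 1.38% of those with Klf2, 0.98% and 1.46% of those with S1pr1, and 0.86% and 1.73% of those with Tcf7. Of cells with Gzmk, which encodes a granzyme, 0.99% and 0.30% held it.

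The other members followed Csf2 to different degrees. Lta was found in 20% and 21.6% of cells with Egr2 and in 17.6% and 19.6% of cells with Il2ra. Tnf was found in 45.0% (40.0 to 50.1) of spinal cord cells with Egr2 and in 31.6% of those with Nr4a1, against 13.4% of cells without Nr4a1. In brain, Tnf differed less with Nr4a1, at 13% against 10.8%. For Il2 4 and 2 of the 30 genes marked more positive cells, where 1.28% and 0.745% of all genes did, and Nr4a1 was the gene found in both tissues (2.95% against 1.56%, and 2.61% against 1.08%). In contrast to the other members, Il2 in spinal cord was found more often in cells with Tcf7 (1.91% against 1.03%), and in brain less often in cells with Cxcr6 (1.16% against 2.20%). At day 50 in spinal cord none of the 30 genes separated Il2-positive cells by this measure. Il2 was then found in 9.90% of cells with S1pr1 and 5.32% of those without, with overlapping intervals.

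**Figure D4:**
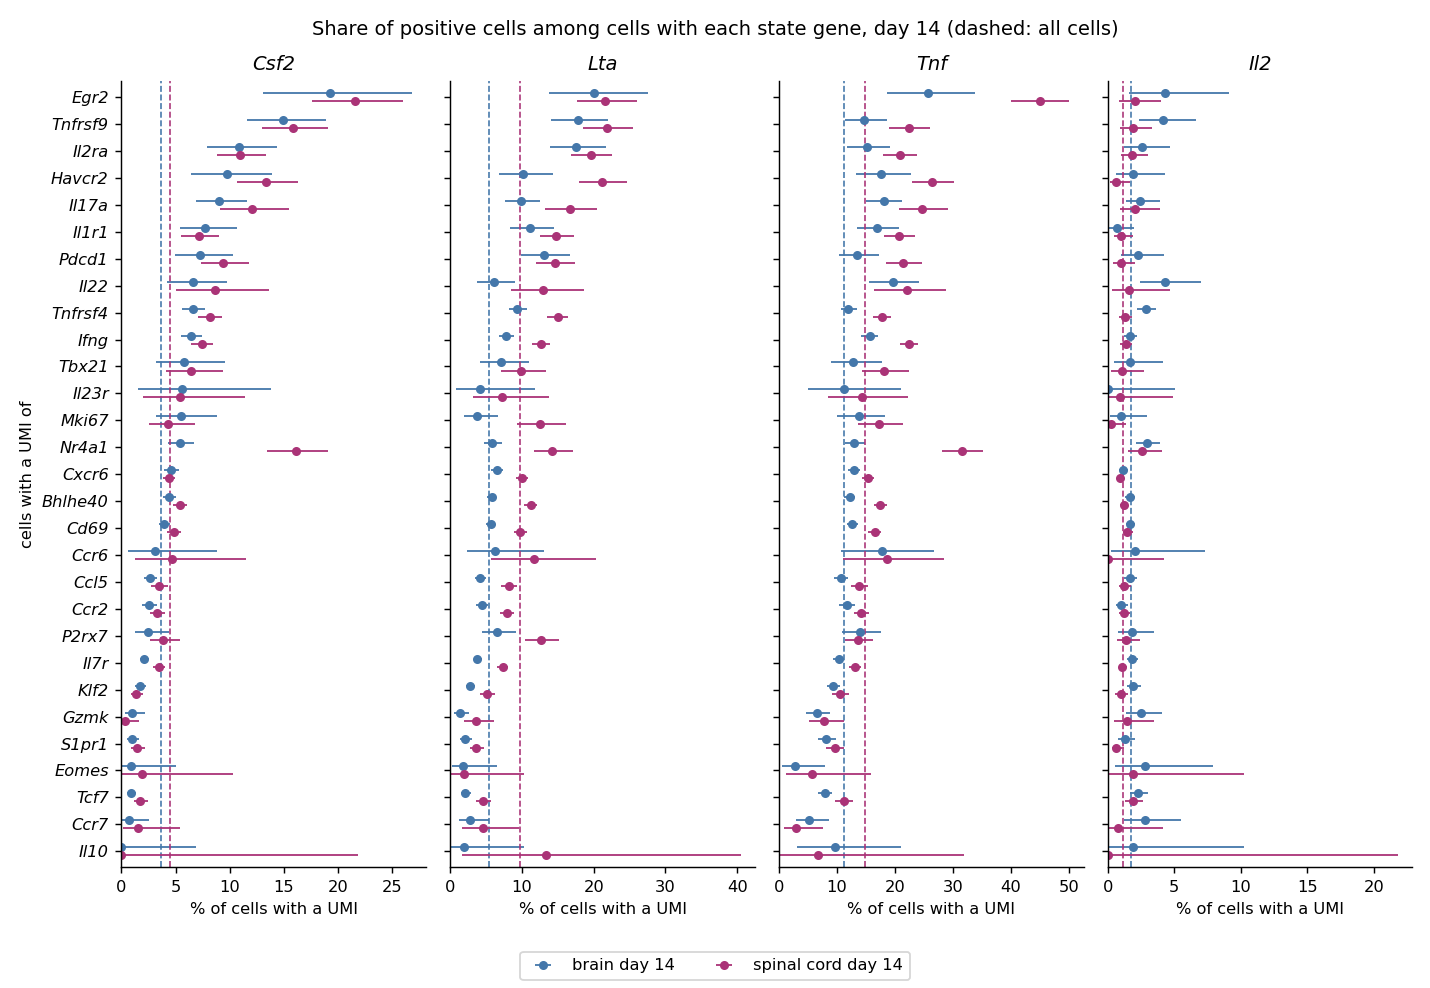
Points give the percentage of cells positive for each cytokine gene among cells with at least 1 UMI of the gene on the left, in the 2 day 14 libraries after thinning to 2000 UMIs; lines are exact 95% intervals, dashed lines the percentage in all cells, and 29 of the 30 genes are drawn, ordered by the Csf2 value in brain. Egr2-positive spinal cord cells hold Csf2 in 21.6%, Lta in 21.6% and Tnf in 45.0%, cells with Tcf7, S1pr1 or Gzmk hold Csf2 in at most 1.73%, and no gene marks cells with more than 4.32% Il2.

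The surface proteins were compared between cells with the lowest and the highest quartile of each antibody count. CD69, a protein that appears on T cells after stimulation and keeps them in tissue, went with Csf2 and Lta at day 14. Csf2-positive cells were 1.36% (0.94 to 1.90) of brain cells in the lowest and 7.24% (6.24 to 8.35) in the highest CD69 quartile, and 1.71% and 8.60% in spinal cord. Lta-positive cells were 2.67% and 10.0% in brain and 5.12% and 15.4% in spinal cord. Tnf varied less, from 9.26% to 13.9% and from 11.3% to 17.7%. For Il2 the share of positive cells was 1.48% and 2.57% in brain and 0.963% and 1.30% in spinal cord, with overlapping intervals in both. The level of Il2 was 17.3 and 82.6 CPM in brain (4.78-fold, 3.77 to 6.12). It was 5.03 and 50.6 CPM in spinal cord (10.0-fold, 6.54 to 16.2). Most Il2 UMIs at day 14 lay in few rich cells, and the richest of each tissue had CD69 counts of 69 and 67, within the highest quartile. These intervals count the UMIs of 1 cell as separate events, so they do not show that the level differed across cells. In spinal cord at day 50 the Il2 shares were in the other order, 8.23% (5.77 to 11.3) in the lowest and 4.51% (2.65 to 7.12) in the highest quartile, with overlapping intervals.

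Cells in the high quartiles were deeper and had higher sums of all 3 antibodies, 61 against 16 for CD69 in brain at day 14, and the part of general antibody binding in these differences was not tested. With CD69 taken as its share of the 3 antibody counts, depth was nearly equal in brain (medians 4553 and 4528 UMIs), and Csf2-positive cells were still 2.73% in the lowest and 6.0% in the highest quartile, with 2.44% and 8.12% in spinal cord. Lta gave 3.54% and 8.31%, and 7.75% and 12.9%, and Il2 in brain 1.10% and 2.93%. Tnf in brain gave 12.6% and 11%, so its relation to CD69 did not hold by that measure.

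CXCR6, a receptor found on tissue-resident T cells, went with Tnf. Tnf-positive cells were 6.73% (5.77 to 7.79) and 15.2% (13.8 to 16.7) of brain cells in the lowest and highest CXCR6 quartile at day 14, and 5.66% (3.54 to 8.52) and 18.1% (14.4 to 22.3) in spinal cord at day 50. As a share of the antibody counts CXCR6 gave 9.09% and 13.9% in brain at day 14 and 6.71% and 19.3% in spinal cord at day 50. Spinal cord at day 14 gave 11.5% and 15.7% by count, but 14.6% and 13.7% by share. Il2 went the other way in brain at day 14, with 2.51% positive in the lowest and 0.951% in the highest quartile by count and 3.8% and 1.01% by share. Csf2 and Lta were more frequent with high CXCR6 counts at day 14. By share both were less frequent in spinal cord at that day, Csf2 at 4.70% (3.87 to 5.66) and 2.73% (2.1 to 3.49) and Lta at 10.9% and 6.61%. In brain Lta gave 6.11% and 3.98% and Csf2 3.8% and 3.36%, the latter with overlapping intervals.

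P2X7R was related to Lta in spinal cord at day 14, with 6.98% positive in the lowest and 14.1% in the highest quartile, though by share the values were 8.66% and 10.3% with overlapping intervals. Csf2 differed little with the P2X7R count at day 14, at 3.48% and 4.66% in brain and 3.53% and 4.25% in spinal cord, and by share it was less frequent in cells high in P2X7R, at 5.21% and 1.99% in brain and 5.05% and 2.57% in spinal cord. In spinal cord at day 50 Csf2 was found in 2 of 397 cells of the lowest and 13 of 375 of the highest P2X7R quartile (0.504% and 3.47%), but by share the values, 0.671% and 2.0%, had overlapping intervals. Il2 there was found by share in 2.69% and 8.0%, with intervals that overlapped narrowly. Brain at day 50 had 67 to 79 thinned cells per quartile, and its CXCR6 quartiles gave Tnf in 3.8% (0.79 to 10.7) and 29.9% (19.3 to 42.3).

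**Figure D5:**
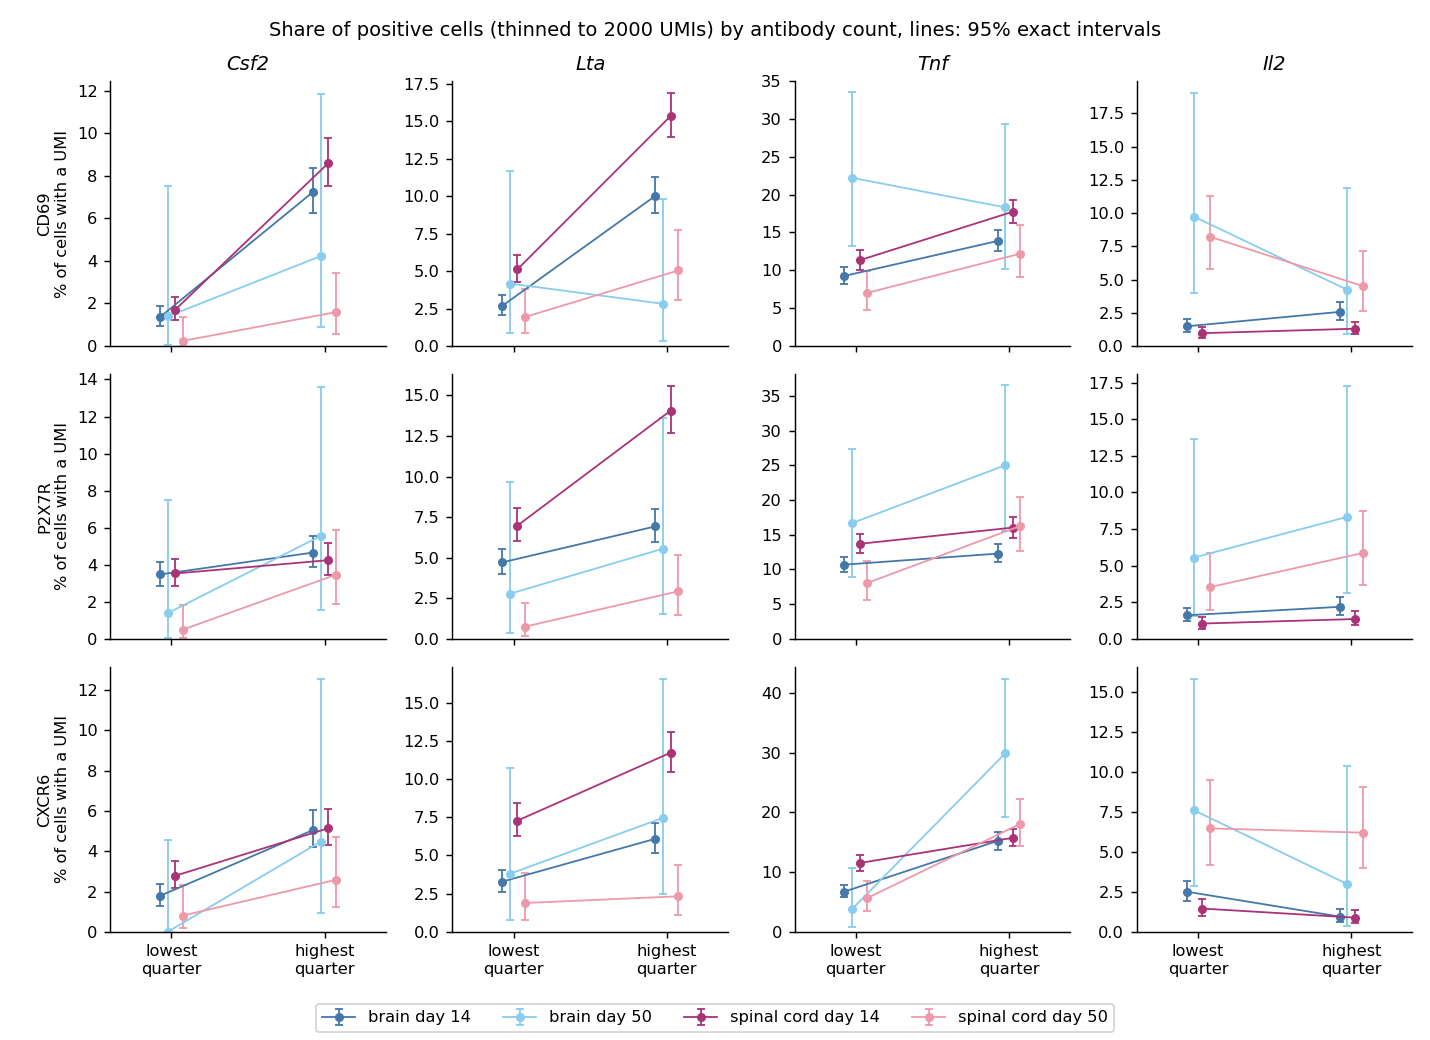
Percentage of cells positive for each cytokine gene in the lowest and the highest quartile of the CD69, P2X7R and CXCR6 antibody counts, by library, after thinning RNA to 2000 UMIs; lines are exact 95% intervals and each panel has its own scale. With CD69 at day 14, Csf2 goes from 1.36% to 7.24% in brain and from 1.71% to 8.60% in spinal cord, and with CXCR6 Tnf goes from 6.73% to 15.2% in brain at day 14 and from 5.66% to 18.1% in spinal cord at day 50.

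Receptors of the cytokines were also compared. Of 11 listed receptor genes, 8 had enough UMIs for the comparison of days, and 2 were called lower in brain at day 50 (median of the 8, −0.35, against −0.13 over all genes), with 1 higher and 3 lower in spinal cord (−0.53 against −0.33). Over all genes 5.74% were lower in brain, and 6.77% were higher and 23.8% lower in spinal cord. Taken relative to the median, 2 receptor genes were higher and 2 lower in brain, against 7.38% and 3.27% of all genes. By that measure 1 was higher and 1 lower in spinal cord, against 12.8% and 10.5%. Il2ra was at 28.9 CPM in brain and 52.1 CPM in spinal cord at day 14 and at 11.3 and 12.5 CPM at day 50, and was called lower in both tissues (−1.36 and −2.07). It thus went the other way from the share of Il2-positive cells. Il2rb (−0.78) and Il2rg (−0.59), the other chains of that receptor, were lower in spinal cord at day 50, but neither was called relative to the median. Csf2ra was low throughout, at 1.72 to 6.07 CPM, and was called higher in spinal cord at day 50 (1.27).

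Of 30 listed activators of these genes, spinal cord at day 50 had 2 higher and 13 lower (median −0.46), against 6.77% and 23.8% of all genes. Relative to the median of all genes 3 were higher and 8 lower, against 12.8% and 10.5%. Among the lower were Il1r1 (60.9 CPM at day 14 and 7.97 CPM at day 50, −2.94) and Il12rb2, a chain of the IL-12 receptor (−1.80). Junb, an AP-1 subunit, was higher (1.79), at 4249 CPM against 1229 CPM. In brain 6 were higher and 1 lower (−0.17), against 5.15% and 5.74% of all genes, with Fos at 1.10, Fosl2 at 1.16 and Junb at 0.89. Between tissues at day 14, Il12rb2 (1.11) and Il1r1 (1.06) were higher and Junb (−1.15) and Fos (−0.94) lower in spinal cord, among 5 higher and 2 lower, against 14.7% and 3.66% of all genes. Relative to the median of all genes 4 were higher and 5 lower, against 6.4% and 6.24%.

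Of 22 listed repressors and mRNA decay factors, spinal cord at day 50 had 6 higher and 5 lower (median 0.03 against −0.33 over all genes), and relative to that median 9 were higher and 2 lower. The shares over all genes were 6.77% higher and 23.8% lower, and 12.8% and 10.5% relative to the median, so the share of this list called lower was near that of all genes. Tnfaip3, an inhibitor of NF-κB signalling (1.41), and Socs3 (1.30) were higher, and Egr2 (−2.68) and Egr3 (−2.18) lower. At day 14, Zfp36, whose protein binds and destabilizes cytokine mRNAs including Tnf, was at 100.4 CPM in spinal cord and 282.9 CPM in brain (−1.50), and Tnfaip3 (−1.13) and Klf2 (−1.28) were lower as well, among 4 higher and 9 lower, against 14.7% and 3.66% of all genes. At day 50 Zfp36 was at 65.2 CPM in spinal cord and 338.0 CPM in brain (−2.37), among 5 lower and none higher, where 4.39% of all genes were lower, and Fos was lower too (201.1 against 986.4 CPM, −2.29). Nr4a1 was lower in spinal cord at day 50 as well (−1.39). Fos, Zfp36 and Nr4a1 are also known to be induced while tissue is dissociated, and the part of that in these differences was not tested.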

How the data were processed

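Each library was deposited as a matrix of raw UMI counts that holds gene and antibody features together, per the file headers. Reads had been counted by Cell Ranger 6.1.1 against mm10, according to the submitters' processing notes. Antibodies were taken by feature identifier. The features with the identifiers P2X7R and CXCR6 carry the deposited names CD3 and CD16, so what the P2X7R and CXCR6 values measure rests on the identifiers. In all 4 libraries their median count was higher in cells with a UMI of the matching gene: 25 against 7 for P2X7R (P2rx7) and 26 against 9 for CXCR6 (Cxcr6) in spinal cord at day 14, and 3 against 1 and 8 against 1 in brain at day 50. Cells needed 500 detected genes, and no more than 10% of their UMIs could be mitochondrial. Scrublet (scanpy 1.11.5) called 5 doublets in brain and 13 in spinal cord at day 50, which were removed. It called 0 at day 14, which counts as a failure of the caller there. Intervals were exact at 95% (Poisson for levels, Clopper-Pearson for shares, conditional binomial for ratios; scipy 1.17.1), and ratios needed 10 UMIs over both libraries. The members and lists were chosen with earlier results of these data known. Genes named from a list were up to 4 called genes per comparison whose intervals lay farthest from 0, genes like a member were its 5 most correlated, and genes of the partner and state lists were named wherever co-detection was described. Of the listed genes 1 is counted but not reported here by name. The interval procedure for ratios was tested on simulated gene totals drawn as Poisson counts. UMIs were not clustered in cells there, so the effect of such clustering on the intervals was not tested. Alternatives covered scaling (TMM by edgeR 4.0.16), cell filters, thinning, rich cells and the antibody measure, whose share form used cells with at least 10 antibody UMIs.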

Additional observations from a re-analysis of the deposited data

Results flagged for a closer look

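Some effects had opposite directions in the 2 tissues or at the 2 days, with intervals on both sides of no change, and the difference itself was not tested because each value comes from 1 library. Tnf was higher at day 50 in brain (log2 ratio 0.38) and lower in spinal cord (−0.79), a difference of 1.17. The ratio of spinal cord to brain was positive at day 14 and negative at day 50 for Csf2 (0.22 and −1.32), Lta (0.93 and −1.28) and Tnf (0.60 and −0.57). These pairs differed by 1.55, 2.21 and 1.17. Relative to the median of all genes, the day 14 ratio of Csf2 was 0.02 (−0.06 to 0.10). Its positive value at day 14 was therefore close to the shift of all genes.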

How the results depend on the processing

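With 1 library per group, counting error was the only error measured, and brain at day 50, with 343 cells, limited every comparison it entered. No paired analysis was possible because there was only 1 library in each group. Of 176 alternative log2 ratios of levels 149 were counted as unchanged, and of 80 ratios of shares 68 were. A change of sign between values that were not called counted as unchanged, as for Lta in brain, day 50 over day 14. That ratio was −0.003, and 0.13 relative to the median of all genes. The 149 include 16 ratios without the filter on low counts, which could not change because all had passed that filter. Keeping doublet calls could not change the tissue ratios at day 14, where none had been removed. The cause of the changes that follow was not tested, except where fewer cells or a stricter limit make the change. The alternative without cells of 10 or more UMIs of the gene was chosen after seeing the data.

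For day 50 over day 14 in brain, Csf2 was −0.50 relative to the median of all genes, −0.60 from thinned cells, −0.39 with a stricter cell filter (1000 genes, mitochondrial share up to 5%), and 0.30, the opposite direction, without its rich cells. Tnf passed the limit at 0.61 from thinned cells and 0.63 without rich cells. Il2 reversed to −0.57 without the 2 richest cells of each library and was 1.29 without all its rich cells. In spinal cord Tnf was −0.46 relative to the median, −0.57 with TMM scaling and −0.38 without rich cells. For spinal cord over brain at day 14, Tnf was 0.40 relative to the median, 0.52 without ribosomal and mitochondrial genes, 0.42 with TMM, 0.58 with the stricter cell filter and 0.44 without rich cells. At day 50, Tnf was called lower at −0.60 relative to the median, −0.74 from thinned cells, −0.61 with a looser cell filter (200 genes, up to 20%), and −0.68 with the stricter filter. Il2 at day 50 reversed to 0.81 without the 2 richest cells and 0.62 without rich cells. A fold limit of 2 ended the calls of Csf2 in brain (−0.64), of Tnf (−0.79) and Il2 (0.60) in spinal cord, and of Lta (0.93), Tnf (0.60) and Il2 (−0.65) between tissues at day 14.

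Among shares of positive cells, the log2 ratio of Tnf in brain was 0.36 at 3000 UMIs, 0.0401 without thinning, 0.23 for at least 2 UMIs and 0.55 with doublet calls kept. In spinal cord it became called at −0.71 without thinning and −1.05 for at least 2 UMIs, and between tissues at day 14 at 0.81 for at least 2 UMIs. Il2 in brain was 0.998 at 1000 UMIs and 0.33 for at least 2 UMIs, and between tissues at day 14 it became called at −0.65 and −0.64 at 1000 and 3000 UMIs. Lta between tissues at day 50 became called at −2.23 for at least 2 UMIs. Co-detection of Csf2 and Lta in brain at day 50 went from 0 to 4.16 times the expectation without thinning.

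The antibody relations depended most on the measure. With each antibody as its share of the 3 counts, the ratio of mean UMIs in the highest to the lowest quartile turned below 1 in brain at day 14 for Tnf with CD69 (0.978), for Csf2 (0.288), Lta (0.892) and Tnf (0.599) with P2X7R, and for Csf2 (0.597) and Lta (0.511) with CXCR6. In spinal cord at day 14 it did so for Tnf (0.807) and Il2 (0.345) with P2X7R and for Csf2 (0.530), Lta (0.460), Tnf (0.993) and Il2 (0.182) with CXCR6. At day 50 it did so for Tnf with CD69 in brain (0.381) and spinal cord (0.343) and with P2X7R in spinal cord (0.908). A split at the median count gave 0.9 for Tnf with P2X7R and 0.744 for Il2 with CXCR6 in spinal cord at day 14. The number of the 4 members more frequent with high antibody became 1 for P2X7R and 1 for CXCR6 in brain and 2 for P2X7R and 0 for CXCR6 in spinal cord at day 14 by share. For CD69 in brain at day 50 it became 3 by the median split, 2 by share and 3 without thinning.

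Thinning to 3000 UMIs turned 6 sparse relations with state genes, given as observed over expected cells: Lta with Il2ra (0) and Csf2 with Pdcd1 (5.18) in brain at day 50, Il2 with Ccr6 (3.52) and S1pr1 (1.4) in spinal cord at day 14, and Il2 with Gzmk (1.02) and Cd69 (1.31) in spinal cord at day 50.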
